A study of Homo sapiens with 30 samples.

Results

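The 6 genes described here are CDKN3 and the CDK inhibitor genes CDKN1B, CDKN2A, CDKN2B, CDKN2C and CDKN2D, 6 of 30373 gene rows in a table of transcript levels from human cancer cell lines. They were chosen by name, with the level of CDKN3 at 16 h of ML-792 already known to be above that of vehicle in all 3 lines, so values of that contrast are given for the 6 genes as a description with no test. ML-792 (ML00754792 in the labels) inhibits the SUMO-activating enzyme, which starts the attachment of SUMO proteins to their targets. MDAMB231 (a breast cancer line), COLO205 and HCT116 (both colorectal cancer lines) received 500 nM ML-792 or 0.01% DMSO (the vehicle) for 16 h. HCT116 cells also received the same doses for 3.5 h, apart from the 16 h experiment, with heat shock or without it. Heat shocked cells had 2 h of compound, 0.5 h at 43 °C and 1 h of recovery at 37 °C, under ML-792 or DMSO throughout. The library codes of heat shocked and unheated cells fall in separate blocks, and the labels do not say whether both were handled together. A difference with heat shock and a difference between those blocks cannot be told apart. Each of the 10 groups held 3 libraries that the labels call biological triplicates, 30 libraries in all.

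CDKN3 encodes a dual-specificity phosphatase, also called KAP, that removes the activating phosphate from CDK2 once its cyclin has left. CDKN1B encodes p27, which binds and inhibits complexes of CDK2 with cyclin E or cyclin A. The INK4 family (CDKN2A for p16, CDKN2B for p15, CDKN2C for p18 and CDKN2D for p19) binds CDK4 and CDK6 and keeps them from their D-type cyclins, which leaves RB proteins unphosphorylated. CDKN2A also encodes ARF from another first exon, and a row per gene cannot separate the ARF and p16 transcripts.

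Levels are FPKM, fragment counts corrected for transcript length and library size, so they can be set side by side between genes. Summed FPKM were between 608121 and 732251 in the 6 heat shocked libraries, between 552951 and 575982 in the 6 libraries of 3.5 h without heat shock, and between 461422 and 524077 in the 18 libraries of 16 h. The table holds no read counts, so depth in reads is unknown; relative depth taken from low values lay between 0.672 and 1.32 across the 12 libraries of 3.5 h and between 0.831 and 1.07 across those of 16 h. Of 8 colorectal markers, 1 was at 1 FPKM or more in every MDAMB231 library, 5 in every COLO205 library and 3 in every HCT116 library. In HCT116 CDX1 was listed at 0 and VIL1, LGALS4, CDH17 and KRT20 stayed under 1 FPKM. In COLO205 KRT20 stayed under 1 FPKM, and CDX1 and CDX2 reached it in 5 and 1 of 6 libraries. Of 7 mesenchymal markers of MDAMB231, 6 reached 1 FPKM in each of its libraries, 2 in every COLO205 library and 4 in every HCT116 library. The 3 haematopoietic markers summed to at most 2.29 FPKM in any library. Since whole cultures were measured, fewer cells of a cycle stage and less RNA per cell cannot be told apart.

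All 6 genes had promoter entries in RefSeq (GRCh38.p14), covering 250 bases before to 50 bases after each start site. The promoters of CDKN3, CDKN2D and CDKN1B are printed because the first pair had the drug differences that passed the test with and without heat shock, and CDKN1B had the largest heat shock difference among the 6. They lie at chr14:54396757-54397056 on the + strand, chr19:10568930-10569229 on the - strand and chr12:12717118-12717417 on the + strand. Capitals mark the core of the cell cycle homology region (TTTGAA, or its reverse complement), CCAAT boxes (CCAAT, or the reverse complement) and a head-to-head pair of heat shock units (GAANNTTC), each searched on both strands.
CDKN3: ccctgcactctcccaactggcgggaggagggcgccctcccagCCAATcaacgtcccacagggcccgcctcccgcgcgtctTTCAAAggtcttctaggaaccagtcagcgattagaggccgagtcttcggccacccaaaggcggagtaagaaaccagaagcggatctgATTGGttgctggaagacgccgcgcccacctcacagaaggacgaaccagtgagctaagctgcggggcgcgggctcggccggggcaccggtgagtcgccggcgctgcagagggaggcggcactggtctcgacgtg
CDKN2D: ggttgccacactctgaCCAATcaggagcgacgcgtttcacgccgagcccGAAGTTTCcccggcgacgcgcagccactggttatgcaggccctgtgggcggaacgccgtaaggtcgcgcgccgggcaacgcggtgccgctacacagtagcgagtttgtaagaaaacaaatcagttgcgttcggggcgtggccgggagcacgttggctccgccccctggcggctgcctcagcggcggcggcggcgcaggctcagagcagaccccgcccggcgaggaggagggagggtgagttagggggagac
CDKN1B: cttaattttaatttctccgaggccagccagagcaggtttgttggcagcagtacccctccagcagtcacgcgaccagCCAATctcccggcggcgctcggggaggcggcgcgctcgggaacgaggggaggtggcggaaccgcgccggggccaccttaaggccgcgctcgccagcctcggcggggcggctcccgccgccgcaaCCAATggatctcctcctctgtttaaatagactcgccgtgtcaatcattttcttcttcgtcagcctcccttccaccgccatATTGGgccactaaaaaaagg
The CDKN3 window held 1 cell cycle homology core and 2 CCAAT boxes, the CDKN1B window 3 CCAAT boxes, and the CDKN2D window 1 CCAAT box and 1 heat shock pair. Of 34943 promoter windows of this length, 15.2% held the cell cycle homology core, 34.6% a CCAAT box and 6.79% the heat shock pair. A GC box (GGGCGG, 44.9% of windows) was found 3 times in the CDKN2D window, 7 times over the 3 starts of CDKN2C, 2 times over the 2 starts of CDKN2A, 2 times at CDKN2B, 1 time at CDKN1B and 0 times at CDKN3. The letters of an E2F site (TTTCCCGC, 1.62% of windows) were in none of the 6 genes' windows. These are matches of letters only, and nothing here measures binding.

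CDKN3 transcripts were more abundant with ML-792 in every setting measured. In MDAMB231 at 16 h CDKN3 had 97.7, 106 and 103 FPKM with ML-792, against 54.2, 54.6 and 57.7 FPKM with DMSO. COLO205 gave 99.2, 96.5 and 102 FPKM with ML-792, against 41.5, 37.3 and 42.5 FPKM with DMSO. In HCT116 the values were 74.8, 79.8 and 82.1 FPKM with ML-792, against 29.5, 29.2 and 28.8 FPKM with DMSO. Every treated library was above every vehicle library of its line, at 1.84, 2.45 and 2.70 times the vehicle mean in MDAMB231, COLO205 and HCT116. On the log2(FPKM + 1) scale the differences were 0.87, 1.27 and 1.40 (SE 0.05 each), which rank 50, 42 and 10 from the top among 14251 genes fitted. Of those genes 16.9% were called in MDAMB231, 37% in COLO205 and 14.7% in HCT116 by the test described next. These are the values by which the gene was chosen, and whether the differences of the lines differ from each other was not tested.

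The 16 h values led to the choice of CDKN3, and those of 3.5 h come from other libraries. Without heat shock CDKN3 had 65.1, 69.0 and 66.4 FPKM with ML-792, against 33.2, 37.7 and 36.6 FPKM with DMSO, and the groups did not overlap. CDKN3 thus rose at the early time in HCT116, with a log2 difference of 0.88 ± 0.08 (SE, n = 3 each, limma, adjusted p = 7.77e-05), rank 9 from the top among 12191 genes. A gene counts as called at an adjusted p under 0.05. Its mean was 1.86 times that of vehicle at 3.5 h and 2.70 times at 16 h. Those values come from separate experiments, and their difference was not tested.

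In heat shocked HCT116 cells CDKN3 again rose with ML-792, to 65.3, 65.8 and 61.5 FPKM with the compound, against 38.5, 43.0 and 49.1 FPKM in DMSO. The log2 difference was 0.56 ± 0.08 (limma, adjusted p = 0.00125) and the groups did not overlap. Set against no heat shock, CDKN3 differed by -0.058 ± 0.079 with ML-792 (limma, adjusted p = 0.541). With DMSO it was higher after heat shock by 0.27 ± 0.08 (limma, adjusted p = 0.0132), a call lost when each library was scaled to the same total (0.035, adjusted p = 0.602) or when vehicle library 1 without heat shock was left out (0.22, adjusted p = 0.0660). Under equal totals the difference with ML-792 was -0.35 (limma, adjusted p = 0.000112), so the difference of CDKN3 between heat shocked and unheated cells depends on the scaling. The effect of ML-792 with heat shock minus its effect without was -0.33 ± 0.11 and did not pass (limma, adjusted p = 0.0812). It passed under equal totals (-0.39, adjusted p = 0.0277), under median-of-ratios scaling (-0.38, adjusted p = 0.0364) and without heat shocked vehicle library 1 (-0.41, adjusted p = 0.0301).

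**Figure D1:**
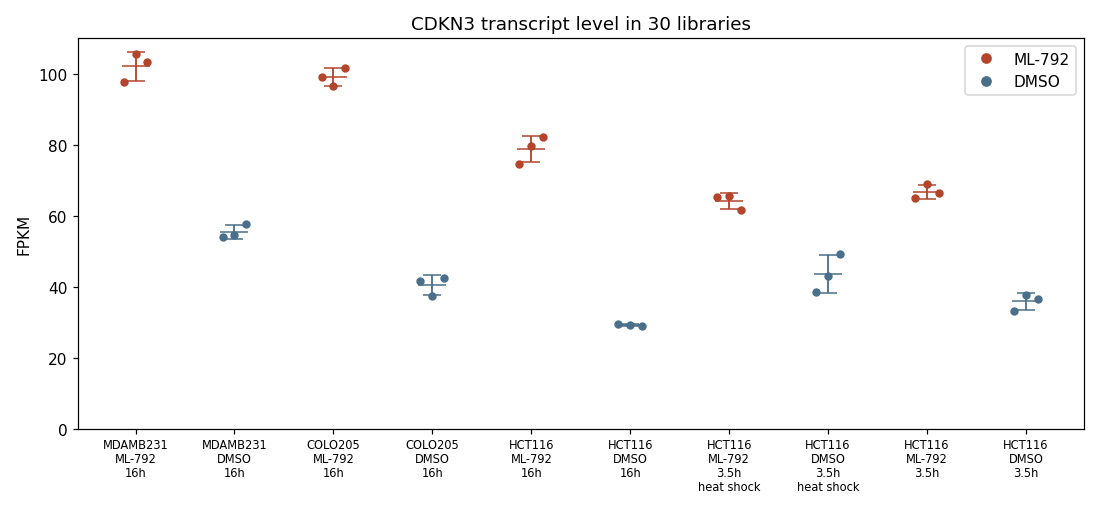
CDKN3 level (FPKM, linear axis from 0) in each of 30 libraries (points), with the mean and SD of each group of 3 (bars). ML-792 libraries lie between 61.5 and 106 FPKM and DMSO libraries between 28.8 and 57.7 FPKM, and within each setting the groups do not overlap.

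Ordered by mean, CDKN3 ran through MDAMB231 with ML-792 (102 ± 4.11 FPKM, SD, n = 3), COLO205 with ML-792 (99.2 ± 2.62), HCT116 with ML-792 for 16 h (78.9 ± 3.77), for 3.5 h (66.8 ± 2.00) and for 3.5 h with heat shock (64.2 ± 2.31). The 5 vehicle groups followed, with MDAMB231 at 55.5 ± 1.91 FPKM, heat shocked HCT116 at 43.6 ± 5.32, COLO205 at 40.5 ± 2.76, HCT116 of 3.5 h at 35.9 ± 2.36 and HCT116 of 16 h at 29.2 ± 0.328. Neighbours in this order overlapped between MDAMB231 and COLO205 with ML-792, between the HCT116 groups treated for 3.5 h, and among heat shocked vehicle HCT116, vehicle COLO205 and vehicle HCT116 of 3.5 h.

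CDKN1B transcripts fell with heat shock, and their differences with ML-792 were small. After heat shock CDKN1B had 5.07, 4.78 and 5.18 FPKM with ML-792, against 13.01, 12.9 and 12.6 FPKM without heat shock. With DMSO it had 5.40, 6.21 and 5.86 FPKM after heat shock, against 11.3, 11.2 and 10.9 FPKM without. The 6 heat shocked libraries were all below the 6 others. Differences were -1.20 ± 0.06 with ML-792 (limma, adjusted p = 3.38e-09) and -0.83 ± 0.06 with DMSO (limma, adjusted p = 1.06e-07), and both held their direction and call under each scaling and with each library left out. Many genes moved with heat shock: 61.7% of 12191 genes were called with ML-792 and 49.5% with DMSO.

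The fall of CDKN1B was larger with ML-792: the interaction was -0.37 ± 0.08 (limma, adjusted p = 0.0265), where 6.41% of genes were called, 2.48% higher and 3.93% lower. That call was lost under equal totals (adjusted p = 0.0523) and without any 1 of the 6 libraries of 3.5 h without heat shock or heat shocked vehicle library 2 (-0.39 to -0.33, adjusted p 0.0624 to 0.0766). In heat shocked cells CDKN1B was lower with ML-792 than with DMSO, by -0.18 ± 0.06 (limma, adjusted p = 0.0271). Without vehicle library 2 (-0.14, adjusted p = 0.119) or ML-792 library 2 (-0.15, adjusted p = 0.0782) of the heat shocked groups, or with those groups fitted alone (adjusted p = 0.168), the call was lost. Without heat shock the difference at 3.5 h was 0.19 ± 0.06 (limma, adjusted p = 0.212), which passed only when those groups were fitted alone (adjusted p = 0.00917). At 16 h the ML-792 mean was 1.24 times the vehicle mean in MDAMB231 (15.7 against 12.6 FPKM), 1.17 times in COLO205 (18.7 against 16.0 FPKM) and 1.23 times in HCT116 (17.7 against 14.4 FPKM), with no overlap in any line.

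CDKN2C and CDKN2D, the INK4 genes on chromosomes 1 and 19, were higher with ML-792 in HCT116 at both times. At 3.5 h without heat shock CDKN2C had 4.82, 4.53 and 5.28 FPKM with ML-792, against 3.19, 3.51 and 3.37 FPKM with DMSO. CDKN2C rose by 0.43 ± 0.08 (limma, adjusted p = 0.0110), a call lost without vehicle library 1 or 3 or ML-792 library 1 or 3 (0.38 to 0.44, adjusted p 0.0546 to 0.0767). CDKN2D had 8.69, 8.88 and 9.19 FPKM with ML-792, against 6.73, 6.54 and 5.998 FPKM with DMSO. It rose by 0.42 ± 0.07 (limma, adjusted p = 0.00891), a call lost without vehicle library 3 (0.38, adjusted p = 0.0647) or ML-792 library 3 (0.40, adjusted p = 0.0622). Neither gene's groups overlapped. Of all genes in this comparison 1.21% were called (1.02% higher and 0.189% lower), and 3 of the 6 genes described here (CDKN3, CDKN2C and CDKN2D) were among them, all higher; since these genes were chosen with earlier results known, that count is a description.

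With heat shock the pair parted. CDKN2D had 8.95, 10.2 and 9.38 FPKM with ML-792, against 6.16, 6.95 and 7.51 FPKM with DMSO, and rose by 0.42 ± 0.07 (limma, adjusted p = 0.00274; 0.0525 with those groups fitted alone), in a comparison where 33.5% of genes were called, 18.4% higher and 15.1% lower. CDKN2C had 5.28, 6.29 and 5.66 FPKM with ML-792, against 5.08, 5.63 and 6.01 FPKM with DMSO. Its groups overlapped and differed by 0.036 ± 0.075 (limma, adjusted p = 0.720). CDKN2C was already higher after heat shock with DMSO, by 0.59 ± 0.08 (limma, adjusted p = 3.75e-05). With ML-792 the heat shock difference was 0.20 ± 0.08 (limma, adjusted p = 0.0366), which became -0.054 under equal totals (adjusted p = 0.532). It missed under median-of-ratios scaling (adjusted p = 0.217), without a filter on low values (adjusted p = 0.0546) and with those groups fitted alone (adjusted p = 0.0664). The call was also lost without heat shocked ML-792 library 2 or 3 or unheated ML-792 library 1 or 2 (0.14 to 0.21, adjusted p 0.0556 to 0.139). The interaction was -0.39 ± 0.11 for CDKN2C (limma, adjusted p = 0.0475) and -0.00 ± 0.10 for CDKN2D (limma, adjusted p = 0.984). The CDKN2C interaction missed the threshold without a filter on low values (adjusted p = 0.0869) and in 8 of 12 fits that left out 1 library, namely any of the 6 unheated libraries, heat shocked vehicle library 2 or heat shocked ML-792 library 1 (-0.44 to -0.35, adjusted p 0.0613 to 0.121). CDKN2D did not pass for heat shock against none, at 0.079 ± 0.071 with ML-792 (limma, adjusted p = 0.348; -0.19 and 0.0217 under equal totals) and 0.083 ± 0.071 with DMSO (limma, adjusted p = 0.356).

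**Figure D2:**
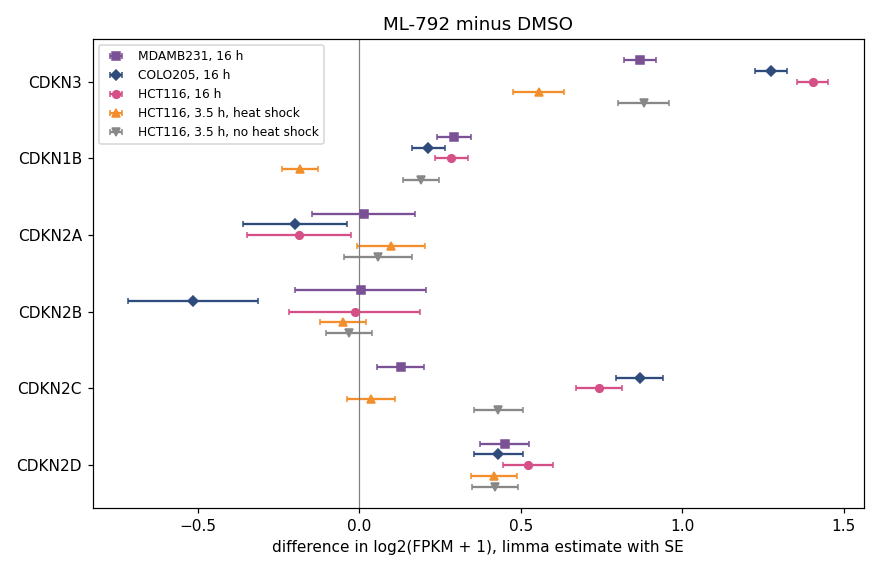
Difference between ML-792 and DMSO on the log2(FPKM + 1) scale (horizontal axis, limma estimate with SE) for each of the 6 genes in 5 settings. CDKN3 lies between 0.56 and 1.40 and CDKN2D between 0.42 and 0.52, while CDKN2C lies near 0 in heat shocked HCT116 (0.036) and in MDAMB231 (0.13).

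At 16 h the CDKN2C mean was 1.095 times the vehicle mean in MDAMB231 (24.8, 23.7 and 23.3 FPKM with ML-792, against 23.3, 20.2 and 22.0 FPKM with DMSO). In COLO205 it was 2.07 times (6.49, 7.32 and 7.69 FPKM with ML-792, against 3.31, 3.44 and 3.65 FPKM with DMSO), and in HCT116 1.87 times (5.86, 6.74 and 7.31 FPKM with ML-792, against 3.32, 3.64 and 3.69 FPKM with DMSO). The groups overlapped in MDAMB231 and stood apart in the colorectal lines. CDKN2D was at 1.38 times the vehicle mean in MDAMB231 (38.9, 35.6 and 34.9 FPKM with ML-792, against 25.8, 26.4 and 27.02 FPKM with DMSO). Its ratio was 1.41 in COLO205 (10.3, 8.46 and 8.13 FPKM with ML-792, against 6.28, 6.999 and 5.85 FPKM with DMSO) and 1.49 in HCT116 (11.97, 10.9 and 12.3 FPKM with ML-792, against 7.19, 8.11 and 8.28 FPKM with DMSO). No CDKN2D groups overlapped.

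CDKN2A did not pass the test for ML-792 in HCT116 at 3.5 h. Without heat shock it had 15.2, 15.6 and 13.3 FPKM with ML-792, against 15.0, 13.7 and 13.5 FPKM with DMSO (0.058 ± 0.11, limma, adjusted p = 1.00). With heat shock it had 18.4, 22.8 and 18.9 FPKM with ML-792, against 16.5, 17.5 and 22.0 FPKM with DMSO (0.099 ± 0.11, limma, adjusted p = 0.473). Heat shock against none gave 0.42 ± 0.11 with ML-792 (limma, adjusted p = 0.00426) and 0.38 ± 0.11 with DMSO (limma, adjusted p = 0.0101), both lost under equal totals (0.14 and 0.15, adjusted p 0.159 and 0.124). At 16 h the HCT116 libraries were widely spread, with 24.2, 18.4 and 14.5 FPKM with ML-792 and 17.4, 19.1 and 29.02 FPKM with DMSO. COLO205 had 21.5, 21.8 and 22.6 FPKM with ML-792, all below the 27.9, 23.99 and 24.3 FPKM with DMSO.

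CDKN2B, which lies beside CDKN2A, was the lowest of the 6 genes in HCT116. At 3.5 h it had 1.03, 0.921 and 1.06 FPKM in heat shocked ML-792 libraries, against 0.828, 0.653 and 0.838 FPKM in unheated ML-792 libraries. With DMSO it had 0.988, 1.18 and 1.07 FPKM after heat shock, against 0.903, 0.854 and 0.685 FPKM without. It passed the 1 FPKM filter of that fit through 4 heat shocked libraries alone, so its heat shock calls (0.18 and 0.20, limma, adjusted p = 0.0440 with ML-792 and 0.0353 with DMSO) lend no support. Both were lost under either scaling. The ML-792 call was also lost without heat shocked ML-792 library 1 or 3 or any unheated ML-792 library (0.13 to 0.20, adjusted p 0.0523 to 0.176), and the DMSO call without heat shocked or unheated vehicle library 2 or 3 (0.14 to 0.21, adjusted p 0.0603 to 0.152). ML-792 against DMSO at 3.5 h gave -0.033 ± 0.071 without heat shock (limma, adjusted p = 1.00) and -0.051 ± 0.071 with it (limma, adjusted p = 0.583). At 16 h HCT116 held 2.03, 1.93 and 2.09 FPKM with ML-792 and 2.10, 2.00 and 2.04 FPKM with DMSO. COLO205 had 5.11, 3.28 and 1.61 FPKM with ML-792 and 5.91, 4.63 and 4.10 FPKM with DMSO, with overlap. An antisense gene, CDKN2B-AS1, overlaps CDKN2B and was listed at up to 1.55 FPKM in COLO205 and 0.448 FPKM in HCT116. Whether the counting used strand is not stated, so reads of the pair cannot be told apart, and 31 stretches of 50 bases (0.803% of those in CDKN2B) also occur in CDKN2A.

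**Figure D3:**
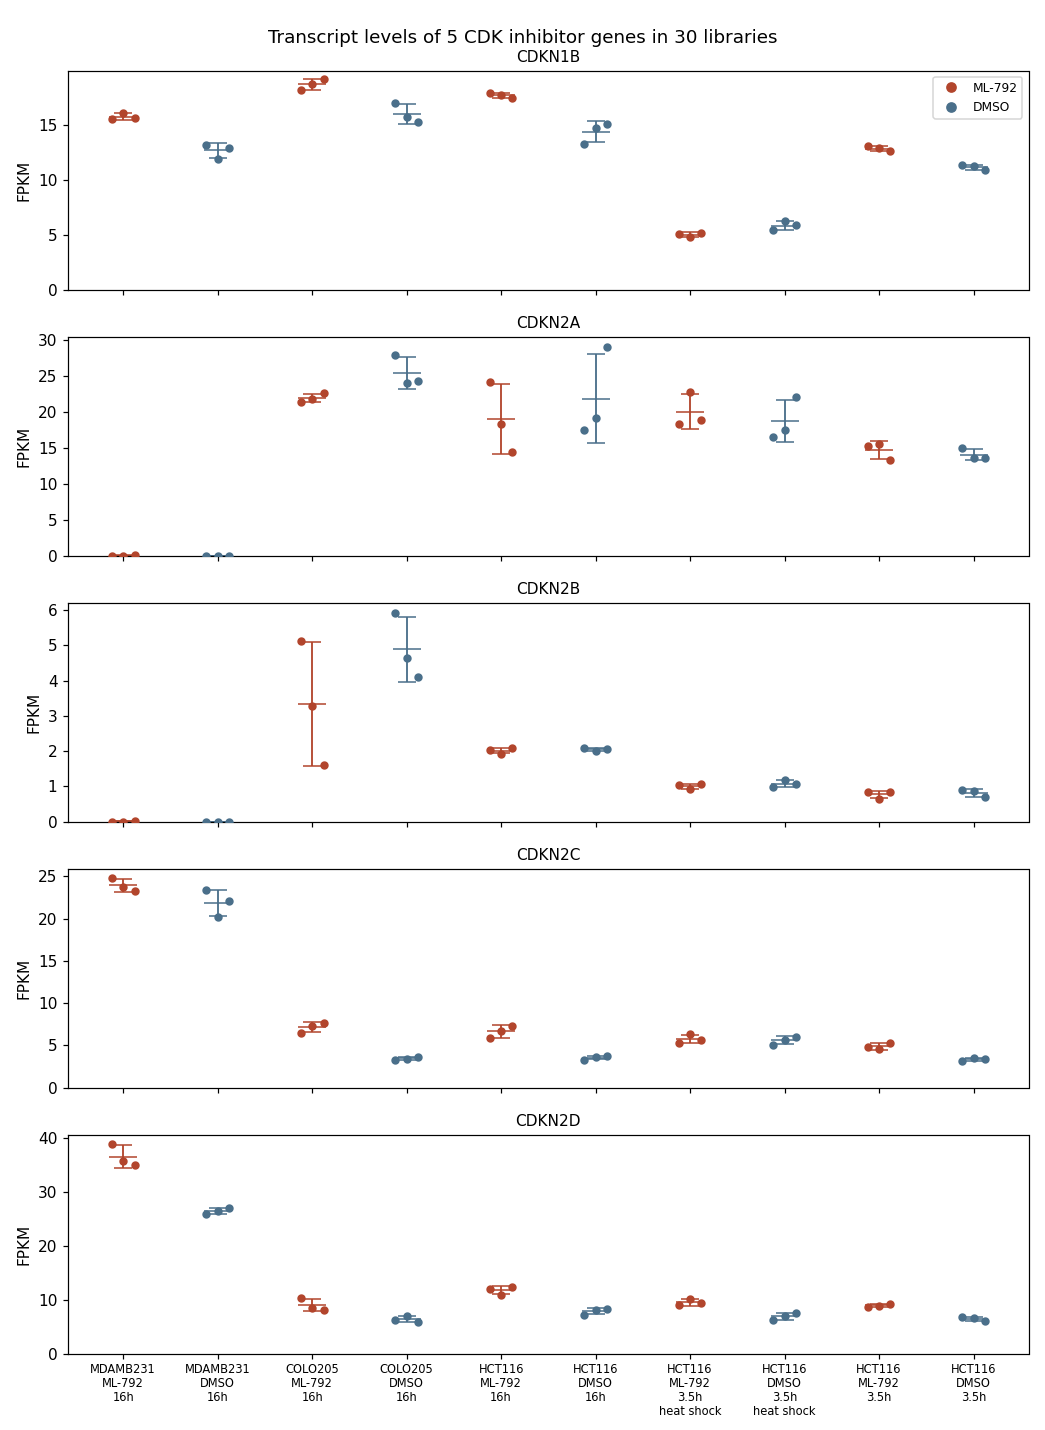
Levels of the 5 CDK inhibitor genes (FPKM, linear axes from 0, a separate scale in each panel) in each of 30 libraries (points), with the mean and SD of each group of 3 (bars). CDKN1B is lowest in the 6 heat shocked libraries (4.78 to 6.21 FPKM), CDKN2A and CDKN2B are at or near 0 in MDAMB231, and CDKN2C and CDKN2D are highest there.

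**Figure D4:**
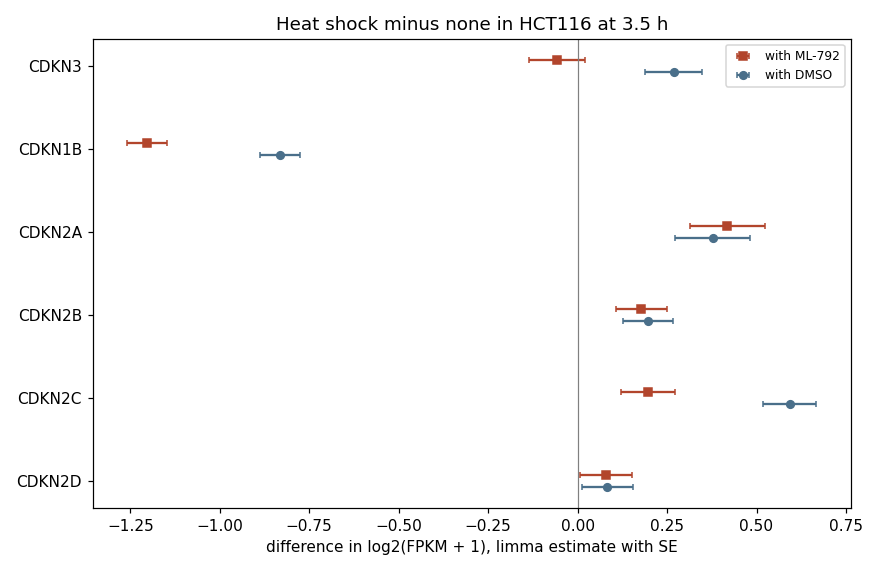
Difference between heat shocked and unheated HCT116 cells on the log2(FPKM + 1) scale (limma estimate with SE) for each gene, with ML-792 and with DMSO. CDKN1B lies at -1.20 and -0.83; with equal totals the difference with ML-792 turns below 0 for CDKN2C and CDKN2D, and the calls of CDKN2A and CDKN2B, and of CDKN3 with DMSO, are lost.

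Levels of the INK4 genes differed between the lines. In MDAMB231, a line known to lack the CDKN2A and CDKN2B locus, CDKN2A was listed at 0 in 5 of 6 libraries and at 0.0285 FPKM in ML-792 library 3. CDKN2B was likewise listed at 0 in 5 of 6 and at 0.00850 FPKM in that same library. MTAP, the next gene of the locus and a methionine salvage enzyme, reached at most 0.0212 FPKM in MDAMB231, against 17.6 to 23.3 FPKM in COLO205 and 60.8 to 118 FPKM in HCT116. IFNE and DMRTA1, also of that locus, were listed at 0 in all 6 MDAMB231 libraries. IFNE had 0.627 to 1.11 FPKM in COLO205 and 0.137 to 1.47 FPKM in HCT116. DMRTA1 reached at most 0.114 FPKM in COLO205 and 0.0534 FPKM in HCT116, so its 0 in MDAMB231 does not set that line apart. MTAP fell with ML-792 at 16 h by 0.28 in COLO205 (limma, adjusted p = 0.000101) and by 0.27 in HCT116 (limma, adjusted p = 0.000463). The spread behind those p-values also pools the MDAMB231 libraries, where MTAP was at or near 0. In HCT116 at 16 h IFNE averaged 1.36 FPKM with ML-792 and 0.817 FPKM with DMSO. That ML-792 group was the only 16 h group with a mean above the 1 FPKM filter. Its call there (higher by 0.38, limma, adjusted p = 0.00700) therefore lends no support. CDKN2A and CDKN2B passed the filter of the 16 h fit through the 12 COLO205 and HCT116 libraries, so no fold or test against MDAMB231 is given.

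CDKN2C and CDKN2D were highest in MDAMB231. With DMSO at 16 h CDKN2C averaged 21.8 ± 1.59 FPKM in MDAMB231 and 3.55 ± 0.205 FPKM in HCT116 (SD, n = 3 each), 6.15 times as much (2.33 ± 0.07 on the log2 scale, limma, adjusted p = 9.67e-16). Against COLO205, at 3.47 ± 0.171 FPKM, it was 6.30 times as high (2.35 ± 0.07, limma, adjusted p = 5.26e-16). CDKN2D averaged 26.4 ± 0.611 FPKM in MDAMB231 and 7.86 ± 0.583 FPKM in HCT116 (1.63 ± 0.08, limma, adjusted p = 5.87e-13). Against COLO205, at 6.38 ± 0.581 FPKM, the difference was 1.90 ± 0.08 (limma, adjusted p = 4.27e-14). CDKN2C and CDKN2D made up 45.2% and 54.8% of the summed INK4 FPKM in vehicle treated MDAMB231, whereas CDKN2A made up 63.3% in COLO205 and 61.2% in HCT116. The CDKN2A share may include ARF transcripts, which its row cannot separate from those of p16. These comparisons called most genes: 83.6% for MDAMB231 against HCT116 (38.1% higher, 45.5% lower), 86.4% for MDAMB231 against COLO205 (41.9% higher, 44.5% lower) and 84.9% for COLO205 against HCT116 (39.4% higher, 45.5% lower).

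CDKN3 in DMSO at 16 h was also highest in MDAMB231, by 0.90 ± 0.05 over HCT116 (limma, adjusted p = 4.82e-12) and by 0.45 ± 0.05 over COLO205 (limma, adjusted p = 1.05e-07). COLO205 exceeded HCT116 by 0.46 ± 0.05 (limma, adjusted p = 9.02e-08). Those pairs share their vehicle libraries. CDKN2B was higher in COLO205 than in HCT116 by 0.94 ± 0.20 (limma, adjusted p = 0.000502). CDKN2D was lower there by -0.27 ± 0.08 (limma, adjusted p = 0.00392), and CDKN2C differed by -0.026 ± 0.071 (limma, adjusted p = 0.745). CDKN2A differed by 0.24 ± 0.16 (limma, adjusted p = 0.178), or 0.45 without vehicle HCT116 library 3 (adjusted p = 0.00440), the library at 29.02 FPKM. For CDKN2A and CDKN2B the pooled spread includes the MDAMB231 libraries, where both were at or near 0. CDKN1B was lower in MDAMB231 than in COLO205 by -0.31 ± 0.05 (limma, adjusted p = 1.74e-05). Its differences of -0.17 between MDAMB231 and HCT116 (limma, adjusted p = 0.00557) and 0.14 between COLO205 and HCT116 (limma, adjusted p = 0.0148) were each lost in part: the first under both scalings (adjusted p = 0.251 and 0.324), the second without vehicle library 1 of HCT116 (0.092, adjusted p = 0.103) or of COLO205 (0.10, adjusted p = 0.0929).

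CDKN3 was then set beside other cell cycle genes. Of 24 genes of G2 and mitosis, 1 rose and 2 fell with ML-792 at 16 h in MDAMB231 (median difference -0.087), where 8.38% of genes were called higher and 8.48% lower. In COLO205 22 rose and 0 fell (median 0.40), where 19.4% of genes were called higher and 17.7% lower. In HCT116 18 rose and 0 fell (median 0.23), where 8.32% were called higher and 6.42% lower. The HCT116 count came to 10 without ML-792 library 2 or vehicle library 3 and to 8 without ML-792 library 3. In MDAMB231 0 fell without ML-792 library 2 or vehicle library 1 or 2, and 4 fell under equal totals. The median over all genes was 0 in MDAMB231, 0.0049 in COLO205 and 0.0035 in HCT116. CENPA, the centromeric histone variant, rose by 0.29 in MDAMB231 (limma, adjusted p = 0.000357), 0.65 in COLO205 (limma, adjusted p = 1.32e-08) and 0.55 in HCT116 (limma, adjusted p = 4.21e-07). KIF20A, a kinesin of cytokinesis, rose by 0.67 in COLO205 (limma, adjusted p = 1.51e-07) and 0.51 in HCT116 (limma, adjusted p = 1.41e-05). At 3.5 h CDKN3's differences of 0.56 with and 0.88 without heat shock were above those of all 24 genes, whose highest were 0.50 and 0.24. With heat shock that gap was smaller than CDKN3's SE of 0.08, and neither gap was tested. At 16 h the highest of the 24 were 0.29 in MDAMB231, 0.67 in COLO205 and 0.55 in HCT116; CDKN3 was chosen for its rise in those contrasts, so its place above the list there was set by the choice.

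**Figure D5:**
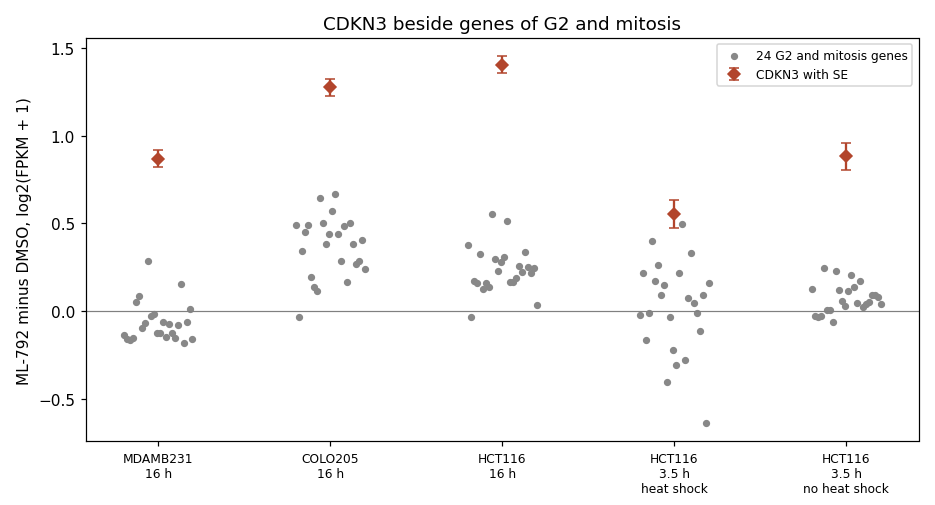
Difference between ML-792 and DMSO on the log2(FPKM + 1) scale for CDKN3 (diamonds, with SE) and for each of 24 genes of G2 and mitosis (grey points) in 5 settings. CDKN3 lies above the whole list in both 3.5 h settings, by less than its SE with heat shock, and in the 16 h settings by which it was chosen. The list's median is 0.40 in COLO205, 0.23 in HCT116 at 16 h and -0.087 in MDAMB231.

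At 3.5 h without heat shock, where CDKN3 rose, limma called 0 of the 24 genes (median 0.056; 5 at an unadjusted p under 0.05), in a comparison where 1.21% of all genes were called, a share that would give few or no calls in lists of this size. With those groups fitted alone, which called 728 genes in all, 7 of the 24 were higher. Likewise 0 of 7 cyclins (2 at an unadjusted p under 0.05), 0 of 5 cell cycle CDKs (0), 0 of 13 RB and E2F genes (0), 0 of 9 genes for CDK1 and CDK2 phosphorylation (1), 0 of 6 genes of the ubiquitin ligases that turn over p27 (1) and 0 of 11 CDC14 and atypical DUSP phosphatases (2) were called. With the groups fitted alone 3 cyclins were called higher, against 1 under either scaling, and 1 p27 ligase gene was. In heat shocked cells, where CDKN3 rose as well, 6 of the 24 G2 and mitosis genes rose and 5 fell with ML-792. That was not far from the 18.4% of all genes called higher and 15.1% called lower. Under median-of-ratios scaling 3 rose and 6 fell, and with those groups fitted alone 1 rose and 0 fell. Of 5 cell cycle CDKs 1 rose and 3 fell, but 0 rose and 0 fell with those groups fitted alone. Of 6 p27 ligase genes 3 rose and 0 fell. Counts higher and lower were 0 and 1 of 7 cyclins and 0 and 2 of 13 RB and E2F genes. They were 1 and 1 of 9 genes for CDK1 and CDK2 phosphorylation, and 0 and 1 of 11 phosphatases.

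Among CDK partners at 16 h, CCNB1, the mitotic cyclin, rose by 0.52 in COLO205 (limma, adjusted p = 1.80e-06) and 0.40 in HCT116 (limma, adjusted p = 0.000116). The counts that follow stand against 8.38% of all genes called higher and 8.48% lower in MDAMB231, 19.4% and 17.7% in COLO205, and 8.32% and 6.42% in HCT116, and a single call in a list is no more than those shares could give. Of 7 cyclins 0 rose and 1 fell in MDAMB231, 6 rose and 0 fell in COLO205, and 2 rose and 0 fell in HCT116. The one that fell was CCND1, a partner of the INK4 targets CDK4 and CDK6, by 0.30 (limma, adjusted p = 0.000563). Of 5 cell cycle CDKs 0 rose and 0 fell in MDAMB231, 2 rose and 2 fell in COLO205, and 1 rose and 0 fell in HCT116. CDK4 fell by 0.44 in COLO205 (limma, adjusted p = 2.55e-07), and CDK1 rose by 0.39 there (limma, adjusted p = 0.000139). CDK6 rose by 0.17 in COLO205 (limma, adjusted p = 0.0127) and by 0.31 in HCT116 (limma, adjusted p = 0.000393). Of 13 RB and E2F genes 0 rose and 5 fell in MDAMB231, 5 rose and 1 fell in COLO205, and 2 rose and 2 fell in HCT116. Of 6 genes for p27 turnover limma called 0 in MDAMB231 and HCT116 (0 at an unadjusted p under 0.05 in each) and 1 in COLO205, a call lost in 4 of 6 fits that left out 1 library (ML-792 library 2 or 3, vehicle library 1 or 2). CDC14 and atypical DUSP phosphatases, relatives of CDKN3, had 1 of 11 lower in MDAMB231 (DUSP14), 1 higher and 1 lower in COLO205 (CDC14B and DUSP14), and 1 lower in HCT116 (DUSP22).

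Between heat shocked and unheated cells, genes of the cell cycle lists differed in both directions, and several counts depended on the scaling. CKS2, which docks CDKs to their substrates, rose by 1.04 with ML-792 (448 against 217 FPKM, limma, adjusted p = 2.04e-07) and by 1.27 with DMSO (495 against 205 FPKM, limma, adjusted p = 3.16e-08). WEE1, the inhibitory kinase of CDK1, rose by 0.50 with ML-792 (limma, adjusted p = 1.86e-05) and by 0.84 with DMSO (limma, adjusted p = 1.97e-07). CCNA2, a cyclin partner of CDK2, fell by 0.88 with ML-792 (limma, adjusted p = 6.76e-07) and by 0.49 with DMSO (limma, adjusted p = 0.000140). Of 24 G2 and mitosis genes 7 rose and 11 fell with ML-792, and 3 rose and 6 fell with DMSO, where 39.3% of all genes were called higher and 22.3% lower with ML-792, and 28.9% and 20.6% with DMSO. Under equal totals those counts came to 1 higher and 17 lower with ML-792 and 1 higher and 19 lower with DMSO. The 7 rises with ML-792 came to 3 without heat shocked ML-792 library 2 and to 4 without unheated ML-792 library 1 or 3. CCNF, the F-box cyclin, fell by 0.95 with ML-792 (limma, adjusted p = 5.84e-08) and by 1.11 with DMSO (limma, adjusted p = 1.28e-08). Of 6 p27 turnover genes 4 rose with ML-792 and 1 with DMSO, but under equal totals 0 rose and 2 fell with ML-792 and 1 rose and 3 fell with DMSO. SKP1, a core subunit of the SCF ligase, differed by 0.24 with ML-792 (limma, adjusted p = 0.00957), which became -0.055 under equal totals, and by 0.45 with DMSO (limma, adjusted p = 0.000186).

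Among protein-coding genes on chromosome 14, RefSeq places CNIH1 (CNIH in the file) and then GMFB on one side of CDKN3. On the other side, beyond a LOC gene with no row in the file, lies BMP4. Noncoding genes were skipped, and distances were not considered. BMP4, a secreted ligand of the TGF-beta family, rose with ML-792 at 3.5 h without heat shock by 0.56 ± 0.07 (77.8 ± 2.05 FPKM with ML-792 and 52.4 ± 1.57 FPKM with DMSO, SD, n = 3 each, limma, adjusted p = 0.00108). At 16 h its differences were 0.075 in MDAMB231 (limma, adjusted p = 0.369), 0.88 in COLO205 (limma, adjusted p = 4.08e-10) and 0.22 in HCT116 (limma, adjusted p = 0.00551). CNIH and GMFB, beside it on the other flank, differed at 3.5 h by 0.010 ± 0.063 and -0.00 ± 0.10 (limma, adjusted p = 1.00 each). In heat shocked cells ML-792 left BMP4 at 0.10 (limma, adjusted p = 0.275), and CNIH and GMFB fell by 0.23 and 0.59 (limma, adjusted p = 0.0183 and 0.00265), while CDKN3 rose by 0.56.

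Across all 30 libraries and 11007 genes that averaged 5 FPKM or more in at least 1 group, the 8 genes most like CDKN3 by Pearson r of log2(FPKM + 1) were ZNF532 (0.83), ATF7IP (0.82), HP1BP3 (0.79), GTDC1 (0.78), GOLGA5 (0.75), SKA2 (0.75), ZNF84 (0.74) and KLF11 (0.74). These r describe libraries that share lines, treatments and experiments, and they carry no test. Among the inhibitor genes r with CDKN3 was 0.60 for CDKN2C (rank 35), 0.56 for CDKN2D (rank 75), 0.27 for CDKN1B (rank 2138) and -0.34 for CDKN2A (rank 9342), and CDKN2B was under the level required. After the mean of each line and experiment was subtracted, 3 of the 8 stayed among the top 8. They came behind DHRS2 (0.95), SUMO3 (0.93), CDKN2D (0.91) and OSGIN1 (0.91). After that step r was 0.85 for CDKN2C (rank 30), 0.91 for CDKN2D (rank 3), 0.22 for CDKN1B (rank 2881) and -0.14 for CDKN2A (rank 7521). What remains then includes the 16 h differences with ML-792 by which CDKN3 was chosen. By Spearman's rho 5 of the 8 stayed, and rho was 0.77 for CDKN2C (rank 6), 0.70 for CDKN2D (rank 18), 0.44 for CDKN1B (rank 400) and -0.21 for CDKN2A (rank 7840).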

How the data were processed

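RNA was taken from biological triplicates with an RNeasy kit, made into TruSeq stranded mRNA libraries and read on a HiSeq as paired 50-base reads, per the labels' protocols. The deposited values are FPKM per gene, made by the authors. The submitters' processing notes name DESeq2 1.10.1 with no role. The aligner, genome build, annotation and strand setting of the counting were not given in the sources used here.

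Tests used limma 3.58.1 in R 4.3.3, with its trend and robust options, on log2(FPKM + 1), a scale that understates changes of low genes, after dropping genes that did not reach 1 FPKM in 3 libraries. The 18 libraries of 16 h (14251 genes) and the 12 of 3.5 h (12191 genes) were fitted apart, with 1 mean per group. P-values were adjusted by Benjamini-Hochberg across every gene fitted, with 0.05 as threshold. The scripts were tested on simulated data. P-values measure the spread between triplicates, pooled for each gene over every group of its fit, including groups outside the comparison. Replicates were less alike in heat shocked groups (lowest r 0.996) than in unheated groups of 3.5 h (lowest r 0.999). Through that pooling heat shocked libraries shape the p-values of unheated comparisons, and the reverse. Libraries are numbered in accession order, and 0 of 30 replicate pairs were identical.

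The 6 genes and the lists were chosen with earlier results of these data known. Genes named besides the 6 are CDKN3's neighbours, genes of the INK4 locus, the 8 most like CDKN3, and from each list up to 3 called genes with the smallest adjusted p in a comparison. CDKN2B-AS1, DHRS2, SUMO3 and OSGIN1 were added after their values were seen. Relative depth came from ratios of low values. Alternatives were pseudocount 0.1, no filter and a 5 FPKM filter, 2 scalings (median-of-ratios and equal totals), eBayes without trend and robust, fits of the compared groups alone and each library left out.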

Additional observations from a re-analysis of the deposited data

Results flagged for a closer look

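In HCT116 cells at 3.5 h, the interaction term of the limma fit (the effect of ML-792 with heat shock minus that without) passed for 2 of the 6 genes, where it passed for 6.41% of all genes, and neither call held under every alternative. For CDKN2C it was -0.39 ± 0.11 (adjusted p = 0.0475): the drug difference was 0.036 with heat shock and 0.43 without. For CDKN1B it was -0.37 ± 0.08 (adjusted p = 0.0265), with -0.18 with heat shock and 0.19 without. Leaving out each library in turn gave -0.45 to -0.35 for CDKN2C (adjusted p 0.0303 to 0.121) and -0.42 to -0.33 for CDKN1B (adjusted p 0.00824 to 0.0766). The call was lost in 8 of 12 such fits and without a filter on low values (adjusted p = 0.0869) for CDKN2C, and in 7 of 12 and under equal totals (adjusted p = 0.0523) for CDKN1B.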

How the results depend on the processing

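No paired analysis was possible because replicates carry no number in the labels. CDKN3's rise with ML-792 at 3.5 h and in heat shocked cells kept its direction and call under every alternative run, with 0.83 to 0.92 and 0.47 to 0.64 when each library was left out; its difference at 16 h, untested, kept its direction. CDKN3 calls that changed were heat shock against none with ML-792 (-0.35, equal totals), the same with DMSO (0.035, equal totals; 0.18 to 0.35 leaving out each library) and the interaction (-0.39 equal totals, -0.38 median-of-ratios, -0.41 to -0.24 leaving out each library).

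Numbers of genes called moved by over 1.5 times with the compared groups fitted alone: 728 against 147 for ML-792 at 3.5 h, 255 against 4083 in heat shocked cells and 1316 against 2101 in HCT116 at 16 h. The interaction called 781 genes, 247 under equal totals and 211 without a filter; fitting its groups alone gives the same fit and was not a separate value. Leaving out each library gave 83 to 93 genes at 3.5 h, 1629 to 5011 in heat shocked cells (1629 without vehicle library 2, 2317 without ML-792 library 2), 77 to 2520 for the interaction and 1180 to 2822 in HCT116 at 16 h (1180 to 1270 without ML-792 library 2 or 3 or vehicle library 3).

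The split of calls into higher and lower moved with the scaling. The median of all genes for heat shock with ML-792 was 0.10 as deposited and -0.16 under equal totals, and the share of calls that were higher was 63.8% as deposited, 49.3% under median-of-ratios scaling and 24.2% under equal totals. With DMSO the shares were 58.4%, 50.1% and 22.2%, for ML-792 in heat shocked cells 54.9%, 36.1% and 32.8%, for the interaction 38.7%, 19.4% and 15%, and for HCT116 at 16 h 56.4%, 45.6% and 35.4%. Signs of some differences between heat shocked and unheated cells reversed under equal totals. Among cells with ML-792 these were CDKN2C (-0.054), CDKN2D (-0.19), CDK2 (-0.080), SKP1 (-0.055), CNIH (-0.29), GOLGA5 (-0.10), GTDC1 (-0.22) and ZNF532 (-0.048). Among cells with DMSO they were CDK2 (-0.081) and CDK7 (-0.0057). The likeness to CDKN3 kept 3 of 8 genes after centring and 5 of 8 by rank. Causes were not tested. Depth in reads is unknown, so no counting interval can be given for the low values of CDKN2B.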
